A study of Homo sapiens with 6 samples.

Results

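The genes described here are 10 genes of the canonical Wnt pathway: CTNNB1, TCF7L2, AXIN2, NKD1, RNF43, ZNRF3, LGR5, SP5, TBX3 and GLUL. They were chosen by name, and their members are the RPB1-occupied and pSer2-RPB1-occupied regions to which the deposited annotation gives one of these gene symbols. Of the 271336 regions in the 4 deposited lists, 865 were assigned to these genes, which are 10 of the 16428 gene symbols in the lists. The 4 lists held 107 of 46045 RPB1 regions in SHP-1 WT cells, 116 of 41605 RPB1 regions in SHP-1 KO cells, 336 of 102674 pSer2 regions in SHP-1 WT cells and 306 of 81012 pSer2 regions in SHP-1 KO cells.

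The cells were HepG2, a hepatoma line that carries an activating mutation of CTNNB1. SHP-1 KO cells had PTPN6, the gene for the tyrosine phosphatase SHP-1, disrupted by CRISPR, SHP-1 WT cells did not, and both were left untreated. The labels do not say whether the SHP-1 WT cells were untransfected or had received a non-targeting guide. The study derived its knockout and control lines as single-cell clones after transfection of guides to the phosphatase domain or of a non-targeting guide, and the labels do not say which clone was used, so the knockout and differences between clones cannot be told apart. Chromatin was precipitated with an antibody to RPB1, the largest subunit of RNA polymerase II, or to RPB1 phosphorylated on serine 2 of its C-terminal tail (pSer2), and each combination of antibody and cells gave 1 library, with 1 input for each kind of cell. These cells are called WT and KO from here on. Each region has a fold enrichment over the input of the same cells at its summit, here called fold, and a −log10 q-value from the peak caller. With 1 library per condition there is no replicate error, so no p-value is given and each difference is a description, set beside the same quantity over all regions or genes.

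In the Wnt pathway, a ligand bound by Frizzled and LRP5 or LRP6 receptors stops the destruction complex from degrading β-catenin, the product of CTNNB1. β-catenin then enters the nucleus and activates genes through TCF and LEF proteins, which recognise letters such as CTTTGAT and CTTTGAA. Several of the activated genes encode inhibitors of the pathway, so that the signal limits itself. In the liver the pathway is active around the central vein, where it maintains glutamine synthetase, the product of GLUL, and tumors with mutated CTNNB1 often keep this program.

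Sequences are shown for 2 promoters and 1 intronic region to place the TCF letters against RPB1. The letters searched were CTTTGAT and CTTTGAA on both strands, 2 strings that differ in their last base, and capitals mark each match. RefSeq (GRCh38.p14) held 9 promoter entries for 5 of the 10 genes (GLUL, SP5, CTNNB1, TCF7L2 and RNF43), and in the 250 bases before the start site only SP5 had a match among these 9. The SP5 promoter, chr2:170715087-170715336 on the forward strand, had 3 matches, which began 148, 109 and 84 bases before the start site and did not overlap. At least 1 match was found in 5.94% of all 35116 promoter entries and 3 or more in 7 entries. The promoter of TCF7L2, chr10:112949997-112950246 on the forward strand, is shown as one under RPB1 with no match before the start site, although a match lay within 100 bp of an RPB1 summit just past it in both cell types. All 250 bases of both promoters lay under RPB1 regions in both cell types and overlapped no GENCODE exon. The intronic sequence lies in intron 3 of NKD1, chr16:50596946-50597167 on the forward strand, and joins the windows of 100 bp on each side of the RPB1 summits of WT and KO cells. It was the only region outside promoters with a match at the summit in both cell types, and its fold was 4.39 in WT and 7.78 in KO cells.
SP5 promoter: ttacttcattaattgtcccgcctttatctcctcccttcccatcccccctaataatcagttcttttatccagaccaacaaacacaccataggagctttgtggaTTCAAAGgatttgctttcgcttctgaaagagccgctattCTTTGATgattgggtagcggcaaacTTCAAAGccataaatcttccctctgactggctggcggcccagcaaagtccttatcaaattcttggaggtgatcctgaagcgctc
TCF7L2 promoter: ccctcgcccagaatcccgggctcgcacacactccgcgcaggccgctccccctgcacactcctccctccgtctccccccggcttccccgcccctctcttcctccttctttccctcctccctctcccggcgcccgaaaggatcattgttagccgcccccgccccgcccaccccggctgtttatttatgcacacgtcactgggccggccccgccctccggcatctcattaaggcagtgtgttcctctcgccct
NKD1 intron 3: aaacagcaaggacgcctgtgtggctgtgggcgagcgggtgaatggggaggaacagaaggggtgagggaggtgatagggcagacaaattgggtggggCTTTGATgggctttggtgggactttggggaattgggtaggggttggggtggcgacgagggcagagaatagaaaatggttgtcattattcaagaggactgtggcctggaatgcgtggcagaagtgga

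Of the 107 RPB1 regions of these genes in WT cells, 11 had a match within 100 bp of the summit, which is 10.3% (95% Wilson interval 5.84 to 17.5) against 3.63% of all regions of the list. In KO cells 14 of 116 did, which is 12.1% (7.33 to 19.2) against 4.05%. Promoter regions were a smaller share of the regions of these genes than of the lists. Among them 3 of 22 had a match in WT cells, which is 13.6% (4.75 to 33.3) against 2.27% of all promoter regions. In KO cells 3 of 26 had one, which is 11.5% (4.00 to 29.0) against 2.68%. Outside promoters the shares were 9.41% (4.85 to 17.5) against 4.72% in WT and 12.2% (6.96 to 20.6) against 5.29% in KO cells. NKD1 held 6 of the 11 and 9 of the 14, and without NKD1 the shares were 10.9% (4.73 to 23.04) of 46 regions and 7.69% (3.33 to 16.8) of 65. Regions of the same gene are not independent, and the intervals cover counting error only. These genes were chosen as Wnt genes, so the shares are a description of the letters and not evidence of binding.

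The lists have 2 features that bear on the values that follow. First, the deposited annotation gives each region to 1 gene, and the WT RPB1 region over the start site of LGR5, chr12:71439019-71442211 with a fold of 28.5, was assigned to the neighbouring gene TSPAN8. LGR5 therefore had no RPB1 region in WT cells by its symbol, while the KO region at the same place, chr12:71438923-71441598 with a fold of 17.1, was assigned to LGR5. The values of LGR5 are given below by position, from 3 kb before to 3 kb after the gene, and this choice was made after the values were seen. Second, fold enrichments of different libraries were scaled separately. Over the 12877 genes with an RPB1 region in both cell types, the median ratio of the strongest region in KO to that in WT cells was 0.742, and over 10870 genes with a pSer2 region in both it was 0.936.

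By symbol, all 8 hepatocyte and hepatoma markers checked (ALB, AFP, APOB, APOA1, HNF4A, FGB, SERPINA1 and TTR) had an RPB1 region in WT cells and 7 had one in KO cells, where none was assigned to APOA1. By position APOA1 had RPB1 regions in both cell types, with a ratio of 0.908. Of the markers of other cells, 1 of 4 leukocyte, 1 of 4 endothelial, 1 of 4 fibroblast and 2 of 4 cholangiocyte genes had an RPB1 region in WT cells by symbol, and the defining genes PTPRC, CD3E, CDH5, VWF, COL1A1 and DCN had none assigned in any list. By position the cholangiocyte gene SOX9 had RPB1 regions in both as well, with a ratio of 0.937. KRT19, another cholangiocyte gene, had a fold of 59.6 in WT and 14.7 in KO cells, and its part in the results was not tested. By its symbol, PTPN6 had 3 RPB1 regions in WT cells, the strongest with a fold of 24.0, and 1 with a fold of 17.2 in KO cells, and its pSer2 fold was 4.03 and 5.24. By position, which takes in regions assigned to its neighbours, the KO to WT ratio turned from 0.718 to 1.35 for RPB1 and went from 1.30 to 1.58 for pSer2. A guide that disrupts the coding sequence need not remove polymerase from the gene, so these values do not check the knockout.

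RPB1 was found at the promoters of nearly all these genes in both cell types. A region annotated as promoter was assigned to 9 of the 10 genes in WT and to all 10 in KO cells, while 51.6% and 50.2% of 19962 protein-coding genes had one. By position all 10 had one in both, LGR5 included. The order of the strongest RPB1 regions in WT cells ran from GLUL at 97.5 through NKD1 at 72.4, SP5 at 65.1, CTNNB1 at 56.2, AXIN2 at 34.8, TBX3 at 33.3, ZNRF3 at 30.5, LGR5 at 28.5 and RNF43 at 19.5 to TCF7L2 at 18.0. GLUL also led in KO cells at 76.3, followed by SP5 at 57.2 and NKD1 at 52.3, and TCF7L2 at 17.4 and LGR5 at 17.1 were lowest. Without replicates it cannot be said which neighbours in this order differ.

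**Figure D1:**
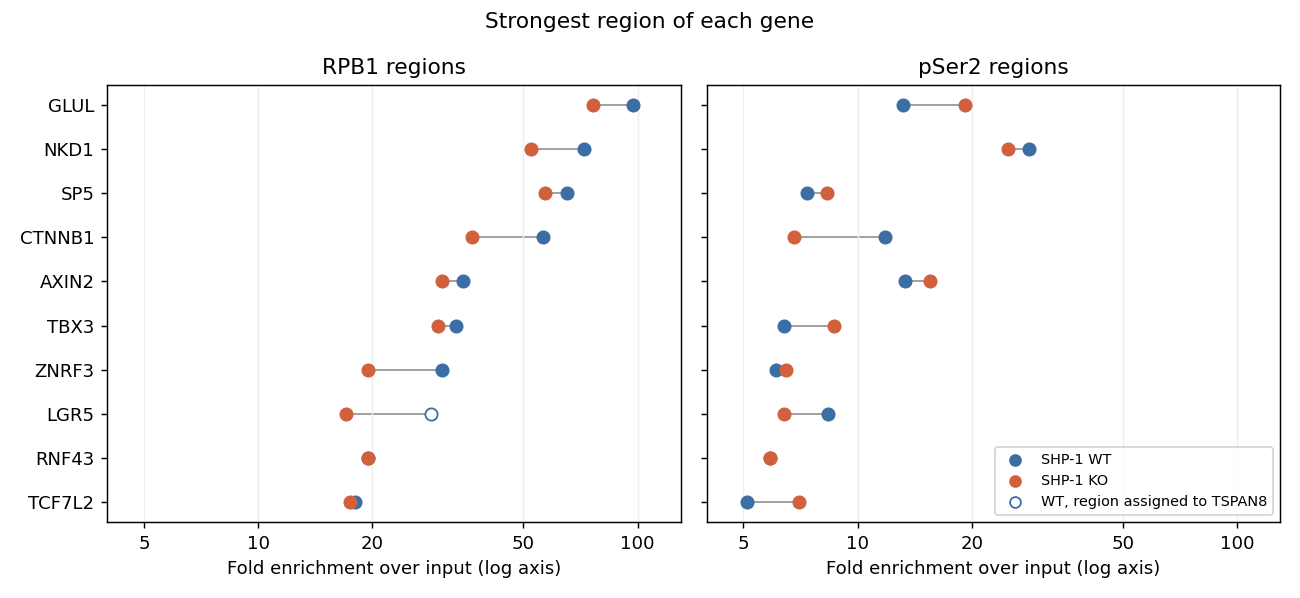
Fold enrichment over input of the strongest region of each gene on a log axis, for RPB1 on the left and pSer2 on the right, with 1 point per library and a line joining WT and KO cells. The RPB1 points of KO cells lie left of those of WT cells except for RNF43, where both are at 19.5, and the open circle of LGR5 is a region assigned to TSPAN8.

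Summits of the strongest RPB1 regions sat close to the annotated start sites (MANE Select transcripts of GENCODE 44). For CTNNB1, NKD1, RNF43, ZNRF3, LGR5, SP5, TBX3 and GLUL they lay from -32 to 124 bp of it in both cell types, negative values being upstream. AXIN2 was the exception in both, with the summit 1438 and 1425 bp into the gene, in intron 1. The WT summit of TCF7L2 was 109 bp from the start site, and in KO cells its strongest region had a summit 1341 bp from it, in coding exon 3.

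CTNNB1 (chr3:41194741-41260096, forward strand) encodes β-catenin itself, the transducer of the signal. Its promoter region was chr3:41198700-41200287 with a fold of 56.2 and rank 1142 of 46045 in WT cells, and chr3:41198726-41200564 with a fold of 36.6 and rank 1762 of 41605 in KO cells. Its KO to WT ratio of 0.651 was below the median of 0.742, and 33.1% of genes had a ratio at or below it. The pSer2 signal of CTNNB1 was strongest over the end of its MANE Select transcript in WT cells, where chr3:41240024-41247595 had a fold of 11.8. In KO cells the region over the same stretch had a fold of 5.74 and the strongest region, in intron 14, had 6.79. Only 5.23% of genes had a pSer2 ratio at or below the 0.574 of CTNNB1. The stretch of the gene under pSer2 regions was not smaller, with 38.5% of the gene span in WT and 42.6% in KO cells, split into 25 and 39 regions.

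TCF7L2 (chr10:112950247-113167678, forward strand) encodes TCF4, a DNA-binding partner of β-catenin. The WT list had 1 region of 3975 bp over its promoter with a fold of 18.0, and the KO list had 3 regions over the same stretch with folds of 17.4, 10.9 and 5.02. A second region 51 kb upstream of the start site had a fold of 13.6 in WT and 8.41 in KO cells. The pSer2 regions of TCF7L2 were few for its length: they covered 4.66% of the gene in WT and 2.03% in KO cells, below the medians of 9.57% and 8.11% over genes with any pSer2 region. Past its 3′ end the pSer2 fold was 4.94 in WT and 6.99 in KO cells. Of its 41 pSer2 regions in WT cells 6 were overlapped by a region of KO cells, against 52.2% of all pSer2 regions of that list.

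The negative feedback genes AXIN2, NKD1, RNF43 and ZNRF3 are induced by β-catenin and dampen the pathway. AXIN2 (chr17:65528563-65561648, reverse strand) encodes a scaffold of the destruction complex. Its strongest RPB1 region, chr17:65558852-65562340, had a fold of 34.8 in WT cells, and chr17:65558837-65562181 had 30.5 in KO cells, a ratio of 0.878. In introns 1 and 2 of AXIN2 the pSer2 folds lay between 1.92 and 3.69 in WT and between 2.28 and 4.63 in KO cells, and the highest folds, 13.3 and 15.5, had their summits just past the gene end. These regions ranked 868 of 102674 and 448 of 81012. AXIN2 was 62.3% covered by pSer2 regions in WT and 77.3% in KO cells.

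NKD1 (chr16:50548396-50649249, forward strand) encodes an inhibitor that binds Dishevelled. It had 61 RPB1 regions in WT and 51 in KO cells, ranking 2 and 3 by the number of regions among 14164 and 13459 genes. The promoter region had a fold of 72.4 in WT and 52.3 in KO cells, a ratio of 0.722 and close to the median. Most of its RPB1 regions were weak, with a median fold of 4.87 over all 61 in WT and of 4.41 over all 51 in KO cells. Region numbers depend on where the peak caller split the signal: the KO promoter region ran for 14117 bp, and in WT cells 12 shorter regions lay over the same stretch, the longest of 2663 bp. The longest pSer2 region of NKD1 was also its strongest and stood near the top of each list, while the median fold over its pSer2 regions was 3.70 in WT and 3.33 in KO cells, beside 3.69 and 3.80 over the lists. A region of 54832 bp with a fold of 28.3, chr16:50591364-50646195, ranked 51 in WT cells, and one of 56510 bp with a fold of 24.9, chr16:50590932-50647441, also ranked 51 in KO cells. Regions of pSer2 covered 96.8% and 96.9% of the gene.

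RNF43 (chr17:58353676-58417595, reverse strand) and ZNRF3 (chr22:28883572-29057488, forward strand) encode membrane ubiquitin ligases that remove Frizzled receptors. RNF43 had an RPB1 fold of 19.5 at its promoter in both cell types. Its strongest pSer2 regions were nearly equal but in different places, at the promoter with a fold of 5.88 in WT cells, where KO cells had 5.76, and in intron 2 with 5.89 in KO cells, where WT cells had 4.83. Regions of pSer2 covered 53.8% and 44.3% of the gene, those assigned to SUPT4H1 included. The pSer2 regions assigned to RNF43 itself summed to 30.7 and 24.8 kb, beside a gene span of 63.9 kb. A stronger pSer2 region lay over the 3′ end of RNF43, with a fold of 9.93 in WT and 18.9 in KO cells, but it was assigned to SUPT4H1, whose promoter lies there, and the contributions of the adjoining genes cannot be told apart.

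For ZNRF3, the promoter region had a fold of 30.5 in WT and 19.5 in KO cells, a ratio of 0.640 that 31.1% of genes were at or below. A region 18 kb upstream of its start site had a fold of 16.3 in WT and 13.9 in KO cells. ZNRF3 had 126 pSer2 regions in WT and 117 in KO cells, which ranked it 19 and 14 among genes by number, and the strongest had folds of 6.10, in intron 2, and 6.48, in intron 1. The last exon of ZNRF3 was under stronger pSer2 regions, with folds of 14.2 in WT and 18.3 in KO cells, which were assigned to C22orf31, an overlapping gene. The ChIP-seq regions carry no direction of transcription, so the signal of the overlapping genes cannot be separated.

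LGR5 (chr12:71439798-71586310, forward strand) encodes a receptor for R-spondins, which protect Frizzled receptors from RNF43 and ZNRF3. By position its promoter fold was 28.5 in WT and 17.1 in KO cells, and the ratio of 0.600 was the lowest of the 10 genes, with 25.3% of genes at or below it. Further RPB1 regions in intron 1, with folds from 3.59 to 4.87, were listed in KO cells and assigned to TSPAN8. Among the pSer2 regions assigned to LGR5 the strongest lay just past its end, with folds of 8.36 in WT and 6.39 in KO cells, and regions in its intron 1 that were assigned to TSPAN8 reached 7.73 and 6.86. Its pSer2 coverage was 17.9% and 18.0% of the gene, with regions assigned to TSPAN8 counted in.

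SP5 (chr2:170715337-170718078, forward strand) and TBX3 (chr12:114670255-114684175, reverse strand) encode transcription factors induced by β-catenin, SP5 being a zinc finger repressor and TBX3 a T-box factor. SP5 is the shortest of the 10 genes, at 2742 bp, and it lay wholly under 1 RPB1 region, chr2:170711200-170722230 of 11031 bp in WT and chr2:170711198-170720670 of 9473 bp in KO cells. The folds were 65.1 and 57.2, and the ranks 597 of 46045 and 354 of 41605. Beside it in KO cells, a further region with a fold of 8.92 was assigned to LOC101926913, at a place that the longer WT region partly reached. The 3 TCF matches printed above lie under this region in both cell types. Its pSer2 region had a fold of 7.34 over 9200 bp in WT and 8.30 over 5447 bp in KO cells, where 2 upstream regions were assigned to LINC01124. Stronger pSer2 regions just downstream, with folds of 10.7 and 9.08, were assigned to LOC101926913.

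TBX3 had a promoter fold of 33.3 in WT and 29.9 in KO cells, a ratio of 0.897. It had 10 RPB1 regions in WT and 15 in KO cells, which covered 24.0% and 35.9% of the gene. The 7 KO regions that no WT region overlapped had folds from 2.95 to 6.12. Downstream of the gene, the RPB1 fold was 6.50 in WT and 10.4 in KO cells. At its 3′ end the pSer2 fold was 6.38 in WT and 8.64 in KO cells, a ratio of 1.36.

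**Figure D2:**
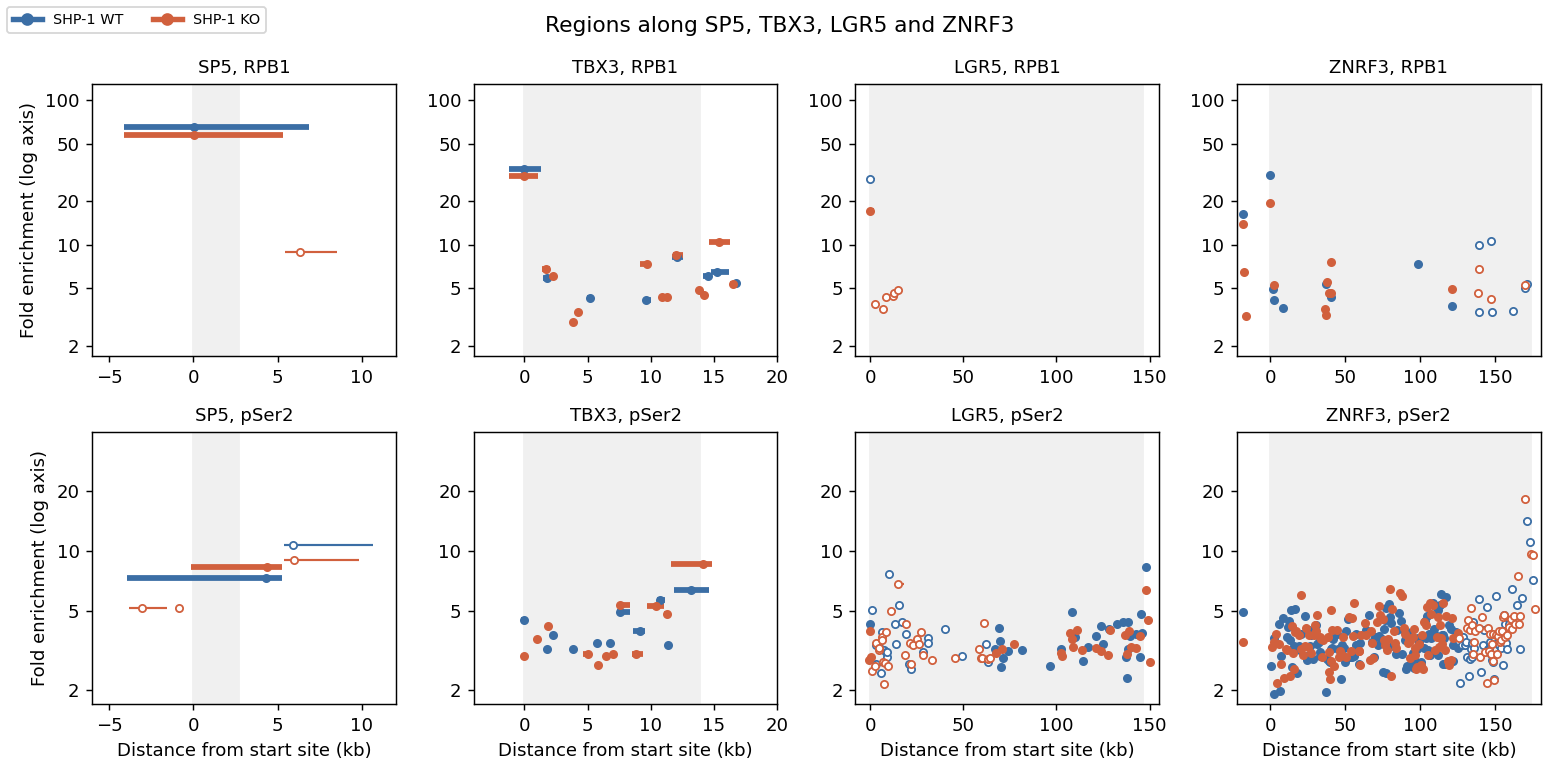
Regions along SP5, TBX3, LGR5 and ZNRF3, drawn as for the previous genes, with the distance from the start site in kb and the fold enrichment on a log axis. The regions of TBX3 annotated as distal intergenic lie past the horizontal axis and are not shown. SP5 is spanned by 1 RPB1 region of 11031 bp in WT and 9473 bp in KO cells, and open points mark regions assigned to other genes, such as the WT region of 28.5 at the start of LGR5 and those of 14.2 and 18.3 over the end of ZNRF3.

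GLUL (chr1:182378098-182392206, reverse strand) encodes glutamine synthetase, the liver enzyme that marks β-catenin activity around the central vein. Its promoter region, chr1:182389584-182392630 in WT and chr1:182391062-182392842 in KO cells, had folds of 97.5 and 76.3 and ranked 58 of 46045 and 80 of 41605. The ratio of 0.782 was near the median of all genes. At the 3′ UTR of GLUL the order was the other way, with RPB1 folds of 8.25 in WT and 16.4 in KO cells. The pSer2 fold followed the same pattern, at the start site 13.2 in WT and 10.1 in KO cells and in the regions with a summit in the 3′ UTR 12.8 and 19.1. The strongest pSer2 region of GLUL thus lay at the start site in WT and in the 3′ UTR in KO cells, and its ratio of 1.45 was the largest of the 10 genes by symbol, with 93.2% of genes at or below it. By position RNF43 was higher at 1.91, and with the KO region over the strongest WT region the ratio of GLUL was 0.766 and that of TBX3, 1.36, was the largest. RPB1 regions covered 45.6% of GLUL in WT and 58.4% in KO cells, and pSer2 regions 78.3% and 76.0%.

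Set beside each other, the strongest RPB1 region was at least 1.5-fold lower in KO cells for 2 of 9 genes, CTNNB1 and ZNRF3, while 36.1% of all 12877 genes were. By position it was 3 of 10, with LGR5 added, against 38.7% of 12924 genes. None of the genes was at least 1.5-fold higher, against 2.68% of genes by assignment and 1.21% by position. The median ratio of the 9 genes was 0.878, and 8 of 9 were below 1 beside 82.1% of all genes. None of these RPB1 counts past 1.5-fold is above its genome-wide share. For pSer2, 1 of 10 genes, CTNNB1, was at least 1.5-fold lower beside 11.7% of 10870 genes, and none was at least 1.5-fold higher beside 5.71%. By position 1 was lower, CTNNB1, beside 12.4% of 10928 genes, and 1 was higher, RNF43 through the region at SUPT4H1, beside 5.6%. The median pSer2 ratio of the 10 genes was 1.10, with 3 of 10 below 1 beside 59.7% of all genes. This direction depended on the place compared: with the KO region that overlapped the strongest WT region, the median of 9 genes was 0.881, and 6 of 9 were below 1 beside 69.6% of all genes. ZNRF3 then had a ratio of 0.702, while by its strongest regions it was above 1.

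**Figure D3:**
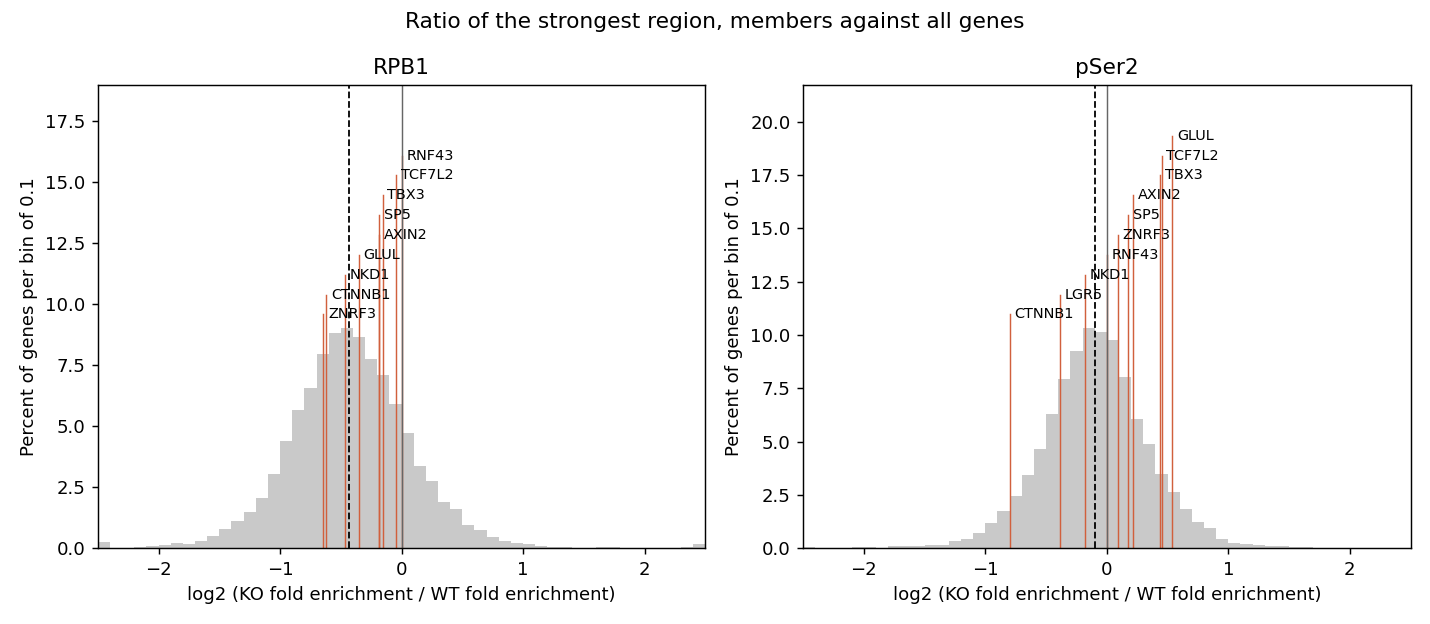
Distribution over all genes of the log2 ratio of the strongest region in KO to that in WT cells, for RPB1 (12877 genes) on the left and pSer2 (10870 genes) on the right, as the percent of genes per bin, with values past the axis placed in the outermost bins. Red lines mark the Wnt genes and the dashed line the median of all genes: the RPB1 ratios lie between 0.640 (ZNRF3) and 1.00 (RNF43), and the pSer2 ratios between 0.574 (CTNNB1) and 1.45 (GLUL).

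With LGR5 left without an RPB1 region in WT cells by its symbol, 1 of the 10 genes had RPB1 regions in KO cells alone, a pattern that 4.32% of genes in the KO list showed, and none had them in WT cells alone, beside 9.09% of genes in the WT list. For pSer2 all 10 genes had regions in both cell types, while 14.7% of genes in the WT list and 4.92% of genes in the KO list had them there alone.

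Over these genes, the share of RPB1 regions overlapped by at least 1 bp in the other cell type was 64.5% (95% Wilson interval 55.1 to 72.9) in WT cells, where all regions of the list had 61.9%, and 55.2% (46.1 to 63.9) in KO cells, where all regions had 74.9%. NKD1 weighed on these shares, and without it they were 73.9% and 60.0%. For pSer2 the share was 68.5% (63.3 to 73.2) in WT cells beside 52.2%, and 75.2% (70.0 to 79.7) in KO cells beside 69.9%. Regions of 1 gene share a locus and are not independent, and the intervals cover counting error only. The RPB1 regions of these genes were intronic in 53.3% of cases in WT and 53.4% in KO cells, where the whole lists had 25.5% and 24.8%. Promoter annotations made up 20.6% and 22.4% of them, and 44.6% and 47.4% of the lists. NKD1 carried most of this contrast, and without it 28.3% and 35.4% of the regions were intronic and 41.3% and 38.5% were annotated as promoter. For pSer2, 75.0% and 71.6% were intronic, against 44.5% and 43.2% of the lists, and without ZNRF3, which had the most pSer2 regions, 63.3% and 58.2% were.

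Coverage by pSer2 was above the median of genes with any pSer2 region for 9 of the 10 genes in both cell types, TCF7L2 being the exception. Regions over the gene span were counted whichever gene they were assigned to, here and in the medians. At LGR5 26.2 kb in WT and 26.4 kb in KO cells were covered, while the regions assigned to it summed to 11.7 and 9.23 kb. The place of LGR5 among the 9 thus rests in part on regions assigned to other genes. SP5 and NKD1 had the highest coverage, at 100% and 96.8% in WT cells, and GLUL followed at 78.3%. From WT to KO cells the largest differences were at AXIN2, TBX3 and RNF43, with AXIN2 and TBX3 (47.2% and 57.4%) more covered and RNF43 less.

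**Figure D4:**
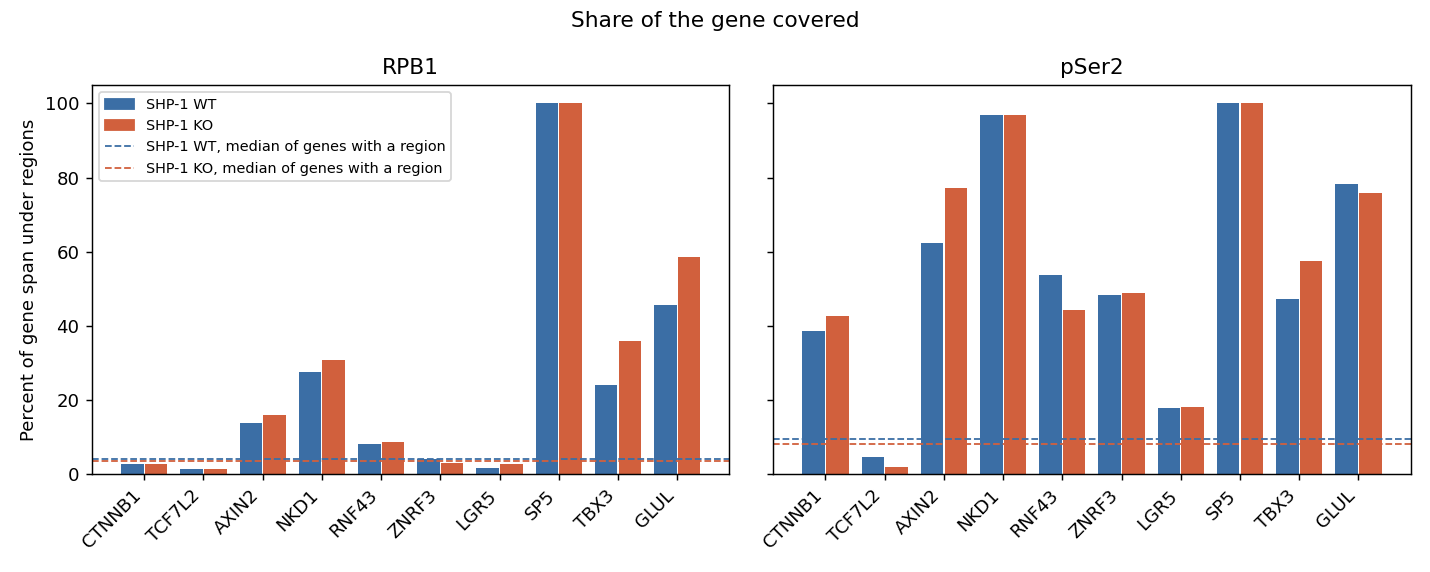
Percent of each gene span lying under RPB1 regions (left) and pSer2 regions (right), whichever gene these were assigned to. There is 1 bar per library, and dashed lines mark the median over genes with any region in that library. Under pSer2, 9 of 10 genes lie above the medians of 9.57% and 8.11%, and TCF7L2 lies below them at 4.66% and 2.03%.

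The other genes of the pathway, 94 genes in 6 lists written from general knowledge of the pathway, are described by role, beside the 51.6% and 50.2% of protein-coding genes with an assigned promoter RPB1 region in WT and KO cells. Of 25 ligands and secretion factors, a promoter RPB1 region was assigned to 1 in WT cells and to 0 in KO cells. WNT10A and WNT9B had RPB1 regions in WT cells alone, with folds of 8.01 and 6.89, and PORCN, which modifies Wnt ligands for secretion, and WNT3 in KO cells alone, with folds of 4.75 and 4.64. These are calls by symbol, and by position PORCN and WNT3 had regions in both cell types, with ratios of 0.560 and 0.585. Transducers and members of the destruction complex had promoter RPB1 regions at 13 of 14 genes in both cell types, and nuclear factors had them at 9 of 12. Receptors had them at 9 of 14 genes in WT and 7 in KO cells, and secreted or membrane inhibitors at 8 and 5 of 15, so that the inhibitors in WT cells and the receptors in KO cells lay near the share of all protein-coding genes.

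Among the 49 wider pathway genes with RPB1 regions in both cell types, 14 were at least 1.5-fold lower in KO cells and 1 at least 1.5-fold higher, which is 28.6% and 2.04% beside 36.1% and 2.68% of all genes, and the median ratio was 0.749. Of the 8 receptors, 3 were lower: the coreceptors LRP6, from 53.5 to 29.2, and LRP5, from 21.4 to 12.3, and the Frizzled FZD5, from 68.5 to 44.2. FZD8 had an RPB1 region in WT cells alone, with a fold of 9.01. Of the 13 transducers, 3 were lower: the scaffold AXIN1, from 39.1 to 14.8, and the kinases CSNK1E, from 29.0 to 14.3, and GSK3A, from 52.7 to 28.1. BCL9, a coactivator of β-catenin, went from 38.1 to 24.2, and the DKK receptor KREMEN2 from 15.5 to 7.92. Of the 12 other known targets, 4 were lower, among them CCND1, which encodes cyclin D1, from 82.5 to 44.9, and RHBG, an ammonium transporter, from 49.8 to 28.6. The only one that was higher was CYP1A2, a cytochrome P450 of the central vein zone, from 21.9 to 70.7, in a region annotated as distal intergenic that lies over 3 kb from the gene.

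Of the 46 wider pathway genes with pSer2 regions in both cell types, 8 were at least 1.5-fold lower in KO cells and 4 at least 1.5-fold higher, which is 17.4% and 8.70% beside 11.7% and 5.71% of all genes. The secreted antagonists DKK1 and DKK3 were among the lower, with DKK1 at 9.94 in WT and 2.81 in KO cells and DKK3 at 9.65 and 4.10. DKK1 also had RPB1 regions in WT cells alone, the strongest at 9.07, and so did SFRP4 at 5.36, but by position both had regions in both cell types, with ratios of 0.399 and 0.639. DVL1, a Dishevelled protein, was at 6.86 and 4.07, and HNF4A at 8.19 and 4.68. The higher genes included PYGO2, a chromatin partner of BCL9, at 4.13 and 6.83, JUN, a subunit of AP-1, at 8.88 and 15.99, and CYP1A2 at 4.85 and 21.9 in its distal regions. By position the pSer2 ratios of DKK3 (0.774), HNF4A (0.745) and PYGO2 (1.13) did not pass the limit.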

How the data were processed

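Regions from ChIP-seq of RPB1 and pSer2-RPB1 in WT and KO cells were used, 1 library for each antibody in each kind of cell. According to the study's methods and the submitters' processing notes, the authors used Trimmomatic for trimming, BWA for alignment to hg38 and MACS2 for narrow peaks, called per library with the matching input as control. Versions are not given in the sources used here. Each deposited region carries a ratio, its fold enrichment over input, and a −log10 q-value, with a genomic feature and 1 gene symbol. A deposited csaw table holds the authors' comparison of RPB1 between the cell types and was not used. The input libraries were not analysed here, and no read counts were used, so library depths are unknown.

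All regions lay within their hg38 chromosomes. Gene spans and exons came from GENCODE release 44 and promoter sequences from RefSeq. Genes were compared by the ratio of the strongest region in SHP-1 KO to that in SHP-1 WT cells, with a limit of 1.5-fold. Overlap required at least 1 bp. Shares have 95% Wilson intervals, for counting error only. The genes named were the 10 Wnt genes, PTPN6, the markers, and up to 4 genes per wider list that passed the limit or had regions in 1 cell type alone. A gene that this rule would name is not reported here. The genes and lists were chosen with earlier results of these data known. The functions for overlap, coverage, merging and exon features were tested on simulated data. Alternatives were a −log10 q-value of at least 5, regions by position, merged intervals, a reciprocal overlap of 50%, a limit of 2-fold, division by the median ratio, the KO region over the strongest WT region, and promoter regions (RPB1) or other regions (pSer2) alone. Python 3.11.15, pandas 2.3.3, NumPy 2.4.6, SciPy 1.17.1 and matplotlib 3.10.9 were used.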

Additional observations from a re-analysis of the deposited data

How the results depend on the processing

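Keeping −log10 q-values from 5 upward left 66 WT and 63 KO RPB1 regions of the 10 genes, and 164 WT and 143 KO pSer2 regions, and the shares overlapped in the other cell type were 80.3%, 76.2%, 82.3% and 86.7% in that order. With a reciprocal overlap of 50% the shares were 33.6%, 31.9%, 28.6% and 31.4%. The count of 2 genes with lower RPB1 was 0 with a limit of 2-fold and 0 after division by the median ratio of all genes. The count of 1 gene with lower pSer2 was 0 with a limit of 2-fold and 2 outside promoters, where AXIN2 was added because its 3′ region is annotated as 3′ UTR in the WT list and as promoter in the KO list. No gene had higher pSer2, but 1 did after division by the median (GLUL) and 1 by position (RNF43), the last setting chosen after the values were seen. The number of genes with a pSer2 ratio below 1 went from 3 of 10 to 6 of 9 with the KO region over the strongest WT region, and the median ratio from 1.10 to 0.881. The remaining alternatives left the counts of regions and of genes past the limit within 1.5 times and the shares within their intervals. No alternative that leaves out a replicate and no paired analysis was possible because each antibody and cell type had 1 library. The unknown depth limits what the absence of a region can show.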
